A study of Mus musculus with 14 samples.

Results

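The genes described here encode subunits that take the place of those of the stem cell BAF complex in other cells: Smarca2, Smarcc2, Smarcd3, Arid1b, Actl6b, Ss18l1, Dpf1, Dpf3, Bcl11a and Bcl11b. They were chosen by name, from what is known of the complex, and are 10 of the 55413 genes that GENCODE M21 annotates on chromosomes 1 to 19, X and Y of mm10, of which 21938 are protein-coding. The study asked where the BAF ATPase, a polycomb enzyme and histone marks lie in mouse embryonic stem cells with and without Smarcb1. ChIP-seq (sequencing of immunoprecipitated chromatin) was done in 81K1 cells for the proteins Smarca4 and Ezh2 and for the histone marks H3K4me3, H3K27me3 and H3K27ac, which makes 5 antibodies. 81K1 is 1 clone of the OG2 embryonic stem cell line that carries an shRNA against Smarcb1 in the Rosa26 locus under a doxycycline-dependent promoter. Control cells were left without doxycycline. Knockdown (kd) cells received 1 µg doxycycline per ml medium and were fixed after 72 h. Both groups carry the cassette, so an effect of doxycycline itself and of the knockdown cannot be told apart.

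BAF complexes use the energy of ATP to move nucleosomes, and exchange subunits as cells differentiate. In embryonic stem cells the complex is built around Smarca4 with Arid1a, Smarcc1, Actl6a, Ss18 and Dpf2 or Phf10, and in neurons Actl6b, Ss18l1, Dpf1 and Dpf3 replace their stem cell relatives. Ezh2 is the methyltransferase of polycomb repressive complex PRC2 and writes H3K27me3, a mark of silent genes. H3K4me3 is found at promoters and H3K27ac at active promoters and enhancers, and promoters with both H3K4me3 and H3K27me3 are called bivalent and are typical of developmental genes in stem cells.

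The deposited data were 10 lists of called regions, with between 5364 and 79014 regions each. Smarca4 and Ezh2 peaks carry a MACS2 score and islands of the histone marks a SICER p-value, neither of which is scaled between libraries. There was 1 library per antibody and condition, so no replicate error, no test and no p-value between conditions can be given. The study's methods give a nominal read number for the Ezh2, H3K27ac and H3K4me3 libraries, which a core facility prepared and sequenced. The lists hold no read counts and the depth reached in each library is unknown. The absence of a call can therefore not be read as lost binding. Active Motif did the immunoprecipitation, libraries and sequencing for Smarca4 and H3K27me3, while the other libraries came from the core facility. The label of embryonic stem cells was checked on marker promoters. H3K4me3 was called at 7 of 8 stem cell markers and at 7 of 8 neural markers in both conditions and did not part them, while 1 of 5 fibroblast markers had it in control and 3 after kd. H3K27ac was called at 6 stem cell markers in control and 7 after kd, at 0 and 1 neural markers and at 0 fibroblast markers in either condition. H3K27me3 was called at 7 neural markers in control and 8 after kd, at 4 and 5 fibroblast markers, and at 2 and 1 stem cell markers. The stem cell markers with it were Esrrb in both conditions, with 100% of the promoter covered in control and 84.2% after kd, and Klf4 in control, with 36.7%. The Smarcb1 level itself is not measured by these lists.

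For each gene, the promoter was the window of 1 kb on each side of the annotated gene start, and the body was the rest of the gene. A region that reached the promoter window was counted there and not in the body. The sequences just upstream of 5 of the starts are shown as examples of different combinations of marks, chosen after their values were seen. Dpf1, where the calls of both Ezh2 and H3K27me3 differed between the conditions, is not among them. They are the 250 bases before the start on the strand of the gene, from the RefSeq copy of GRCm38, with CpG dinucleotides in capitals. Smarcc2 (chr10:128458998-128459247, plus strand), with H3K27me3 called at the promoter in control alone and H3K27ac after kd alone, has 42 CpG in this stretch. Arid1b (chr17:4994082-4994331, plus strand), without H3K27me3 at the promoter, has 36. Actl6b (chr5:137553267-137553516, plus strand) and Smarcd3 (chr5:24624412-24624661, minus strand), where H3K4me3 was called after kd alone, have 13 and 10. Bcl11b (chr12:108003603-108003852, minus strand), with Ezh2, H3K27me3 and H3K4me3 in both conditions, has 9.
Smarcc2: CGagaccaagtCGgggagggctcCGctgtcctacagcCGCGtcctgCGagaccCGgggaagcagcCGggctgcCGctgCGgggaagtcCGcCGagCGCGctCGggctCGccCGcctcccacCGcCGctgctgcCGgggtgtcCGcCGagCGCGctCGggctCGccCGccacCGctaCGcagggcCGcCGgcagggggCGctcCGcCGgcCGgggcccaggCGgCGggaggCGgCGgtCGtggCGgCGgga
Arid1b: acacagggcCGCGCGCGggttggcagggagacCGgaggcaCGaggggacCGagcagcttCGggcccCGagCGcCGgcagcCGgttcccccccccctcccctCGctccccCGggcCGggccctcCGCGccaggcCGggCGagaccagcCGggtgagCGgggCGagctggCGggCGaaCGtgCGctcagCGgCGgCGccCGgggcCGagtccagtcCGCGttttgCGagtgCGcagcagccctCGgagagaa
Actl6b: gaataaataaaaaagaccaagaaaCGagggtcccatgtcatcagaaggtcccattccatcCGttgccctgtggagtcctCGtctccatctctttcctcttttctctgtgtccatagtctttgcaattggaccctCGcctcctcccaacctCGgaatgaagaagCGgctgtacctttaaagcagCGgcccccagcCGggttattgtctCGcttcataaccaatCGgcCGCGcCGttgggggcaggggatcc
Smarcd3: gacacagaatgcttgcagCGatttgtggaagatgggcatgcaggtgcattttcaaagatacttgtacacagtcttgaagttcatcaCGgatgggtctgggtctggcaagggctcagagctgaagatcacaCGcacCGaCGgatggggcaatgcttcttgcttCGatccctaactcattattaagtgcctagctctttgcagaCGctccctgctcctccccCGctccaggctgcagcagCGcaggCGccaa
Bcl11b: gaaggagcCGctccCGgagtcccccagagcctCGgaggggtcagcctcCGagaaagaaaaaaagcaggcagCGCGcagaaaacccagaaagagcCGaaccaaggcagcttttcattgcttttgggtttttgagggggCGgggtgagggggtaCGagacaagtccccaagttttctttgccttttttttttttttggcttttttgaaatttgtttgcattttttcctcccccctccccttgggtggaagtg

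Over windows of 300 bp (250 before the start and 50 from it on), the 10 genes had between 13 and 48 CpG, with a median of 25.5, against a median of 11 for all 21938 protein-coding promoters. The stem cell counterparts had a median of 28.0, from 0 at Actl6a to 59 at Phf10. CpG content therefore did not part the neural and alternative subunits from their stem cell relatives. A GC box (GGGCGG on either strand), the site of Sp1 family factors, was found in 9 of the 10 windows and in 43.0% of all promoters. Arid1b was the gene without a match. The octamer core bound by Pou factors (ATGCAAA on either strand) was found in Bcl11b alone, against 4.27% of all promoters, and the E-box CAGCTG, which reads alike on both strands, in Dpf1 alone, against 15.6%. These are matches of letters and do not show that a factor was bound.

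Most promoters of the neural and alternative subunits carried Smarca4 with H3K27me3, and fewer carried Ezh2. A Smarca4 peak was called at 10 of 10 promoters in both conditions, where 62.5% of all protein-coding promoters had one in control and 63.5% after kd. H3K27me3 was called at 8 of 10 in each condition (34.9% and 29.2% of all promoters). Ezh2 was called at 4 in control and 5 after kd (7.13% and 12.6%). H3K4me3 was called at 8 in control and 10 after kd (56.6% and 60.4%). H3K27ac, in contrast, was called at 2 in control and 3 after kd, close to the background of 16.0% and 30.9%. The shares over all promoters have 95% Wilson intervals of at most 0.663 percentage points to either side, which cover counting error only.

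**Figure D1:**
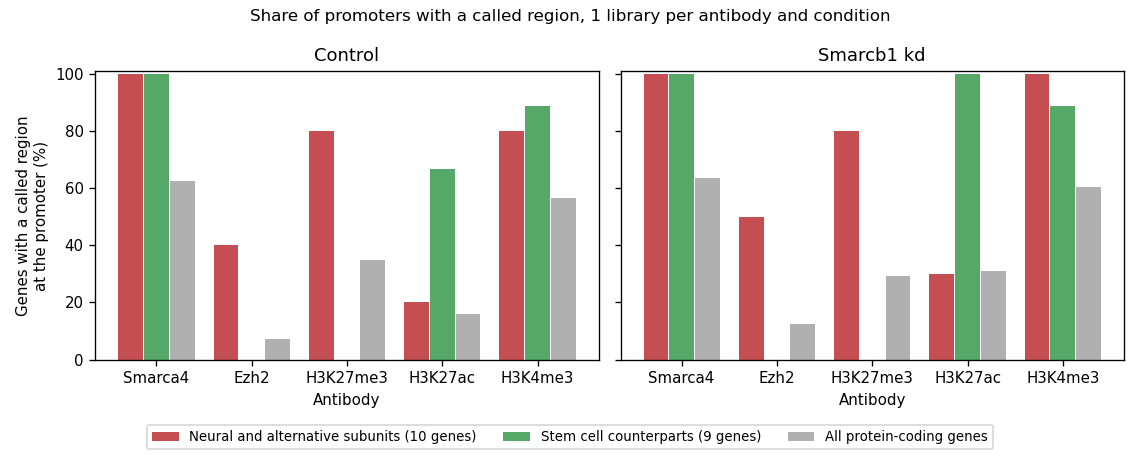
The bars give the percentage of genes (y axis) with a called region of each antibody (x axis) within 1 kb of the gene start, in control (left) and after Smarcb1 kd (right), 1 library per antibody and condition and hence without error bars. Red bars are the 10 neural and alternative subunit genes, green bars their 9 stem cell counterparts, and grey bars all 21938 protein-coding genes. H3K27me3 stands at 80.0% of the red genes and at 0% of the green genes in both panels.

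Bivalent promoters, with H3K4me3 and H3K27me3 called in the same window, made up 6 of the 10 in control and 8 after kd, against 21.2% and 21.6% of all protein-coding promoters. In control, 5 of them (Smarca2, Smarcc2, Dpf3, Bcl11a and Bcl11b) lacked H3K27ac, and Ss18l1 had all 3 marks. Smarcd3 and Actl6b had H3K27me3 alone in control, Dpf1 had H3K4me3 alone, and Arid1b had H3K4me3 with H3K27ac. After kd, H3K4me3 was also called at Smarcd3 and Actl6b and H3K27me3 at Dpf1, so that these 3 were bivalent too, while Smarcc2 had H3K4me3 with H3K27ac. The other 6 genes kept their combination of marks. These calls hold for the gene start alone. With any annotated coding start counted, H3K27me3 promoters were 9 in control and 8 after kd, since Dpf1 then had the mark in both conditions, and H3K4me3 promoters were 9 and 10, since Smarcd3 did too. Seen mark by mark, H3K4me3 was called after kd alone at 2 of 10 promoters (4.59% of all promoters), H3K27me3 in control alone at 1 (8.15%) and after kd alone at 1 (2.39%), Ezh2 after kd alone at 1 (5.78%) and H3K27ac after kd alone at 1 (16.8%).

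The stem cell counterparts had none of these polycomb regions. Their list holds the 9 genes Smarca4, Smarcc1, Smarcd1, Smarcd2, Arid1a, Actl6a, Ss18, Dpf2 and Phf10. Smarca4 peaks were called at 9 of 9 of these promoters in both conditions, and Ezh2 and H3K27me3 at 0 of 9 in both. H3K4me3 was called at 8 of 9 in both conditions, and H3K27ac at 6 in control and 9 after kd. The contrast held pair by pair in control for Smarca2 with Smarca4, Smarcc2 with Smarcc1, Smarcd3 with Smarcd1 and Smarcd2, Actl6b with Actl6a, Ss18l1 with Ss18, and Dpf3 with Dpf2 and Phf10: H3K27me3 was called at the first gene and not at its counterparts. The exceptions were Arid1b, where neither it nor Arid1a had an H3K27me3 island at the promoter in either condition, and Dpf1, where an island reached the promoter after kd alone. For Actl6a, the annotated start lay outside any H3K4me3 island in both conditions, and an island of the mark was called in the gene body instead. Bcl11a and Bcl11b have no counterpart in the list.

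**Figure D2:**
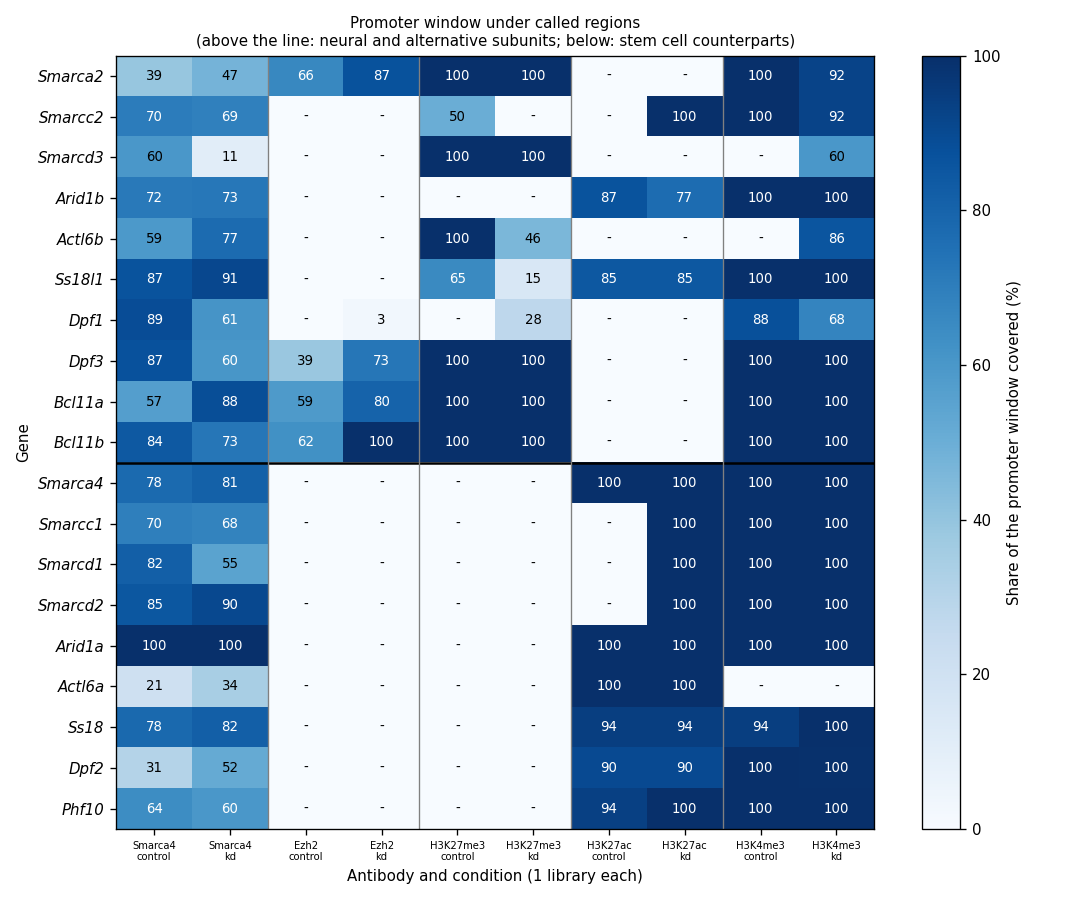
Each cell gives the percentage of the promoter window covered by called regions, for each gene (rows) and each antibody and condition (columns, 1 library each), with a dash where no region was called. The neural and alternative subunits above the black line hold the Ezh2 and H3K27me3 cover, and the stem cell counterparts below it hold none.

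Among the catalytic and core subunits, Smarca2 was the alternative ATPase and was polycomb-covered in both conditions. It lies at chr19:26605050-26778322 on the plus strand. An H3K27me3 island, p listed as 0 in both lists, spanned the start, with a width of 12000 bp in control and 18600 bp after kd. Ezh2 was called there as 3 peaks with scores of 45, 56 and 95 in control and as a single peak of 3699 bp with a score of 451 after kd. The kd peak lay in the top 13.2% of its list and the strongest control peak in the top 34.6%, where the top percentage is the share of a list's regions that were at least as strong. H3K4me3 covered the start with an island of 6000 bp in control (SICER p-value 1.99e-162) and 3800 bp after kd (SICER p-value 2.84e-307). Smarca4 had 2 promoter peaks in each condition, the stronger with a score of 239 in control and 83 after kd. The downstream control peak, from 803 to 2983 bp, corresponded to 2 kd peaks, of which the second began at 1739 bp, had a score of 167 and therefore fell in the body. The H3K27ac island of 1000 bp called in the Smarca2 body after kd alone lay wholly in repeat-masked sequence (100%).

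Smarcc2 encodes a scaffold subunit, and its promoter was the one where H3K27me3 was called in control alone. The gene lies at chr10:128459248-128490482 on the plus strand, and the start of Mir8105 lies within 1 kb of its own. In control, H3K27me3 islands lay on either side of the start, from -7647 to -448 bp (SICER p-value 1.70e-14) and from 553 to 2952 bp (SICER p-value 3.94e-20). After kd a single island from 1153 to 2952 bp (SICER p-value 1.45e-12) was left, just outside the promoter window. With a window of 2 kb this island was counted as well. With a -log10 p from 20 on, neither control island was kept. An H3K27ac island from -1847 to 1552 bp was called after kd alone (SICER p-value 6.69e-19, in the top 32.8% of the list). H3K4me3 covered the start in both conditions, with 4400 bp in control and 2400 bp after kd. Smarca4 had 3 promoter peaks in control, the strongest with a score of 124, and 4 after kd, the strongest with 219. No Ezh2 peak was called at the promoter or in the body.

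Smarcd3, a subunit known from heart and neural BAF complexes, lay almost wholly under H3K27me3. The gene is at chr5:24590818-24624411 on the minus strand. In control, 1 island of 44800 bp ran from -9589 to 35210 bp and covered 100% of the promoter and of the body. After kd there were an island of 10000 bp over the start (SICER p-value 4.31e-158) and one of 26200 bp over the rest, which left 94.5% of the body covered. An H3K4me3 island of 1200 bp over the start was called after kd alone (SICER p-value 9.77e-42, top 58.3% of the list). The promoter peak of Smarca4 was 1199 bp wide in control, with a score of 105, and 215 bp wide after kd, with a score of 47. Smarcd3 thus had the smallest promoter share under Smarca4 after kd among the 10 genes, 10.7%, against 59.9% in control.

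A second annotated coding start of Smarcd3, 22399 bp downstream of the first, carried more marks than the gene start itself. Within 1 kb of it, Smarca4, Ezh2, H3K27me3 and H3K4me3 were called in both conditions. The Ezh2 peak was 1116 bp wide with a score of 153 in control and 1556 bp wide with a score of 670 after kd, in the top 16.2% and 5.80% of their lists. The H3K4me3 island had a SICER p-value of 3.06e-118 in control and 7.79e-130 after kd. A weak H3K27ac island of 1000 bp was called there after kd alone (SICER p-value 1.23e-06, top 92.5%). Further coding starts more than 1 kb from the gene start were annotated in Smarca2, Arid1b, Dpf1, Dpf3 and Bcl11a. Those of Smarca2 and Dpf3 held no H3K4me3 or Ezh2 region in either condition. That of Bcl11a, at 2614 bp, held Smarca4, Ezh2, H3K27me3 and H3K4me3 in both conditions, and that of Arid1b, at 2089 bp, Smarca4, H3K27ac and H3K4me3 in both.

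Arid1b, the alternative to the DNA-binding subunit Arid1a, was the only one of the 10 with H3K27ac and without H3K27me3 at the promoter in both conditions. It lies at chr17:4994332-5347656 on the plus strand and, at 353 kb, was the longest of the 10. H3K27ac covered the start with an island of 3800 bp in control (SICER p-value 1.02e-37, top 7.43% of the list) and 3400 bp after kd (SICER p-value 6.16e-59, top 4.01%). H3K4me3 islands, p listed as 0 in both lists, measured 5400 and 7400 bp. Neither Ezh2 nor H3K27me3 was called at the promoter in either condition. Smarca4 had 2 promoter peaks in each condition, with scores of 219 and 219 in control and of 370 and 515 after kd. The stronger kd peak ranked 519 of 72339, and the control peaks lay in the top 8.85% of their list. The H3K27me3 islands of 1600 and 5200 bp near the 3' end were called in control alone and were weak, since 97.9% and 96.5% of the list were at least as strong.

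Actl6b encodes the neuronal actin-related subunit that replaces Actl6a, and its promoter held a Smarca4 peak near the top of both lists. The gene lies at chr5:137553517-137569582 on the plus strand. The peak had a score of 667 in control, at rank 114 of 79014, and of 1347 after kd, at rank 6 of 72339. It spanned the start in both, with widths of 1821 and 1777 bp (control and kd). H3K27me3 covered the whole promoter in control, with an island of 14600 bp (SICER p-value 1.13e-287). After kd the island began at 84 bp, measured 9800 bp (SICER p-value 1.52e-76) and left 45.8% of the window covered. An H3K4me3 island of 2000 bp over the start was called after kd alone, with SICER p-value 8.41e-21 in the weaker part of its list (top 75.6%). Ezh2 and H3K27ac were called neither at the promoter nor in the body in either condition. In the body, a second H3K27me3 island of 23000 bp began at 10884 bp in control and overlapped no kd island within the gene, which left 59.0% of the body covered after kd against 93.4% in control.

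Ss18l1, the neuronal relative of Ss18, had all 3 marks at the promoter in both conditions. It lies at chr2:180042509-180070201 on the plus strand, and the start of Psma7, a proteasome subunit gene, lies within 1 kb, so that the marks cannot be assigned to either start. H3K4me3 islands, p listed as 0 in both lists, measured 4600 bp in control and 3200 bp after kd. The H3K27ac island was 2000 bp wide with the same borders in both lists, with SICER p-value 2.04e-07 in control (top 88.7%) and SICER p-value 4.33e-20 after kd (top 30.4%). H3K27me3 was 4600 bp wide over the start in control (SICER p-value 2.66e-68) and 1800 bp wide after kd (SICER p-value 1.62e-19), beginning at 692 bp. It covered 65.4% of the window in control and 15.4% after kd. A single Smarca4 promoter peak had scores of 283 and 316.

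The PHD finger subunits differed from each other. Dpf1, at chr7:29303951-29318243 on the plus strand, had the densest Smarca4 peaks of the 10 bodies, with 58.0% of the body covered in control and 51.5% after kd. Its H3K27me3 island began at 3650 bp in control (4200 bp wide) and at 450 bp after kd (7400 bp wide), so that it reached the promoter after kd alone and covered 27.5% of it. At the further coding starts of Dpf1 at 3973 and 5562 bp, H3K27me3 and H3K4me3 were called in both conditions, and there the call of H3K27me3 did not differ between control and kd. An Ezh2 peak of 415 bp was called after kd alone, with a score of 60 (top 78.3%), and began at 942 bp, just inside the promoter window. H3K4me3 was a single island of 6600 bp over the start in control, and islands of 3000 and 2600 bp after kd. Near the 3' end, an H3K27ac island of 2200 bp (SICER p-value 1.15e-29) and an H3K4me3 island of 3600 bp (SICER p-value 7.67e-37) were called after kd alone.

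Dpf3, at chr12:83213745-83487716 on the minus strand, had the highest Ezh2 score at a promoter among the 10 genes in control. The peak of 1782 bp had a score of 573, in the top 0.909% of the list. After kd the peak at that place was 2198 bp wide with a score of 374 (top 18.1%), and a second peak of 581 bp upstream of the start, with a score of 69, was called after kd alone. H3K27me3 covered the start with 28400 bp in control (p listed as 0) and 10200 bp after kd (SICER p-value 2.48e-269). A second kd island, of 11200 bp, lay within the span of the control island (SICER p-value 6.00e-11, top 98.3% of the list). H3K4me3 islands of 4000 and 3200 bp covered the start. Of 6 further H3K27me3 islands in the control body, 5 were called in control alone. Over the bodies of the 10 genes 52.4% of the control islands were unshared, against 52.0% over all protein-coding bodies. The Ezh2 peak of the control body of Dpf3, also called in control alone, was 84.0% repeat-masked.

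Bcl11a and Bcl11b are zinc finger proteins that associate with BAF in neural and lymphoid cells, and both were bivalent with Ezh2 in both conditions. Bcl11a lies at chr11:24078056-24174123 on the plus strand and Bcl11b at chr12:107910403-108003602 on the minus strand. At Bcl11a the H3K27me3 island, p listed as 0 in both lists, was 35600 bp wide in control and 28800 bp after kd, with the same upstream border at -20455 bp. The 3 Ezh2 promoter peaks had scores of 126, 18 and 123 in control and 197, 114 and 288 after kd. H3K4me3 islands over the Bcl11a start measured 8600 and 8200 bp, the widest of the 10 genes in each condition.

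At Bcl11b, H3K27me3 formed an island of 46600 bp in control, the widest at any of the 10 promoters, and islands of 18600 and 18400 bp after kd. Ezh2 was called as 2 promoter peaks of 438 and 826 bp in control, with scores of 19 and 93, and as 1 peak of 4860 bp after kd with a score of 425 (top 14.9%). That peak covered 100% of the promoter window, and the control peaks together 62.5%. H3K4me3 islands measured 5600 and 4800 bp.

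**Figure D3:**
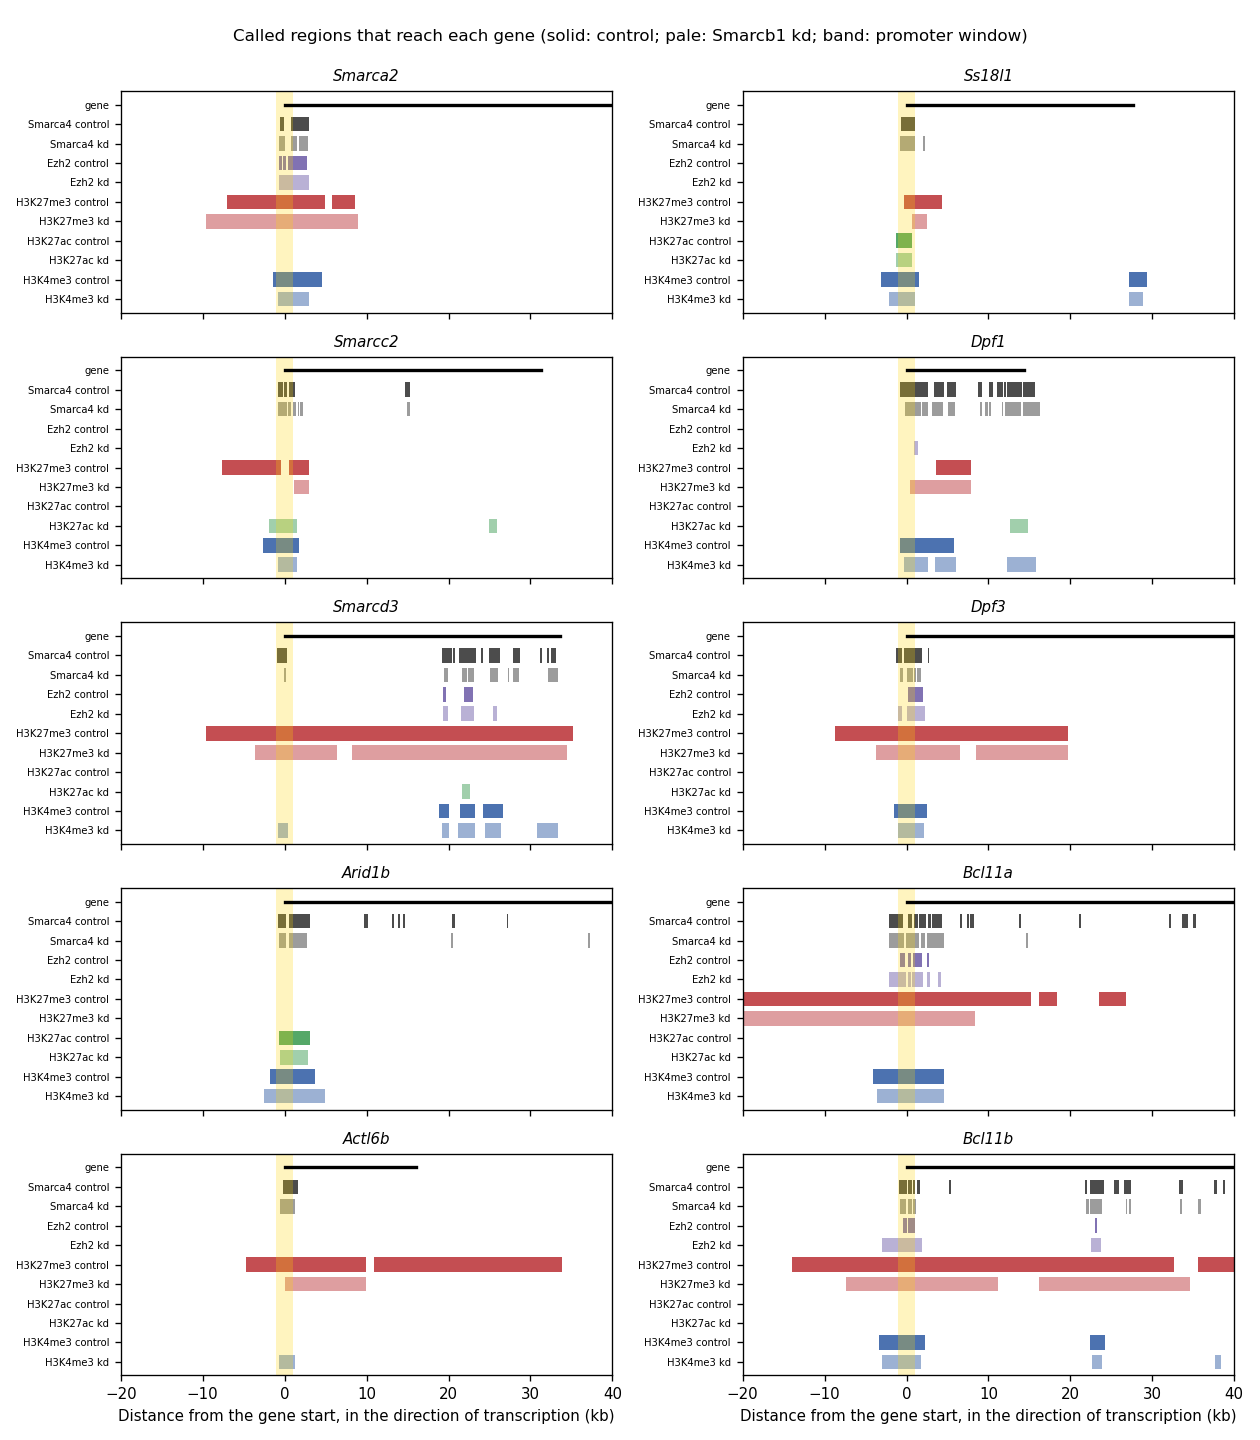
Called regions at the 10 genes, by distance from the gene start in kb along the direction of transcription (x axis, from 20 kb before to 40 kb after) and by antibody and condition (rows; solid bars control, pale bars Smarcb1 kd, 1 library each). The black line is the gene as far as it lies in the window and the yellow band the promoter. H3K27me3 bars (red) are shorter after kd at Smarcd3, Actl6b, Ss18l1, Dpf3, Bcl11a and Bcl11b and longer at Smarca2 and Dpf1.

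Taking the widest region of each promoter, H3K27me3 islands were narrower after kd at 6 of the 7 genes called in both conditions (59.3% of 5874 protein-coding genes) and wider at Smarca2. At these 7 the median was 28400 bp in control, against 10200 bp after kd, while all such genes had 11400 and 10200 bp. At Smarcd3, Dpf3 and Bcl11b the control island also overlapped a kd island in the body, of 26200, 11200 and 18400 bp. These body islands were not measured here, so part of the narrowing is a split of a called island. At Smarca2 the kd island conversely overlapped a control body island of 2800 bp. Ezh2 peaks were wider after kd at 4 of 4, as they were at 97.8% of 1502 protein-coding genes. H3K4me3 islands were narrower at 7 of 8 (60.8% of 12239), Arid1b being the exception. Smarca4 peaks were narrower at 8 of 10 (54.8% of 13117). The direction seen at the 10 genes was thus the more frequent one over all genes for each of these antibodies, and the change of Ezh2 width was nearly general. Of the Ezh2 peaks in these genes, 16 of 17 in control and 16 of 16 after kd overlapped an H3K27me3 island, against 77.2% and 95.7% of the Ezh2 peaks in all protein-coding genes.

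In the gene bodies, Smarca4 peaks were called apart from the promoter in 7 of the 10 genes in control and 9 after kd (41.1% and 40.4% of 21219 genes with a body). With a MACS2 score from 50 on the numbers were 7 and 7. With peaks that reach the promoter also counted they were 10 and 10. The number of peaks was 69 in control and 45 after kd, or 6.26 and 4.08 per 100 kb, against 3.57 and 2.81 over all protein-coding bodies. Of the control peaks, 38 had no overlapping kd peak (55.1%, against 54.8% over all bodies), and of the kd peaks 12 had no overlapping control peak (26.7%, against 36.5%). The unshared control peaks were weak, with a median position in the top 74.3% of the list, and the shared ones stood in the top 23.3%. Over all protein-coding bodies the order was the same, with 68.0% for the unshared and 37.5% for the shared control peaks. The covered length of the body was smaller after kd in 8 of 10 genes, against 63.3% of the 11899 genes with a body region in either condition, and larger in Smarcc2 and Ss18l1. The unshared peaks lay in 5 genes, with 16 in Arid1b, 9 in Bcl11a, 7 in Bcl11b, 3 in Smarcd3 and 3 in Dpf3.

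Arid1b, Bcl11a and Bcl11b were the genes with at least 10 body peaks in control, a limit set after their values were seen. None of them reached it after kd. The limit was set on control, which is also the denominator of the kd share, and this favours low shares. The genes they are compared with below passed the same limit. Arid1b had 21 in control and 9 after kd (42.9%), Bcl11a 13 and 4 (30.8%) and Bcl11b 12 and 7 (58.3%). Among all 857 genes with at least 10 such peaks, the median kd share was 61.1% (quartiles 38.9% and 85.0%), and 39.8% of them had at most 50% of the control number. Within this set chosen on control, Bcl11a was below the lower quartile, and Arid1b and Bcl11b lay between the quartiles. These positions are descriptive and were not tested. In Arid1b, the 4 strongest body peaks of control, with scores of 219, 209, 213 and 97, lay at 95078, 195228, 276438 and 103297 bp, and the first 3 had a kd peak with a score of 85, 136 and 83. In Bcl11a, 9 control peaks between 6575 and 79568 bp had no kd peak, and the peak in the 3' exon at 85604 bp had a score of 185 in control and 57 after kd. In Bcl11b, the peak at 22358 bp was kept, with scores of 232 and 260, and an Ezh2 peak overlapped it in both conditions, with scores of 67 and 349.

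**Figure D4:**
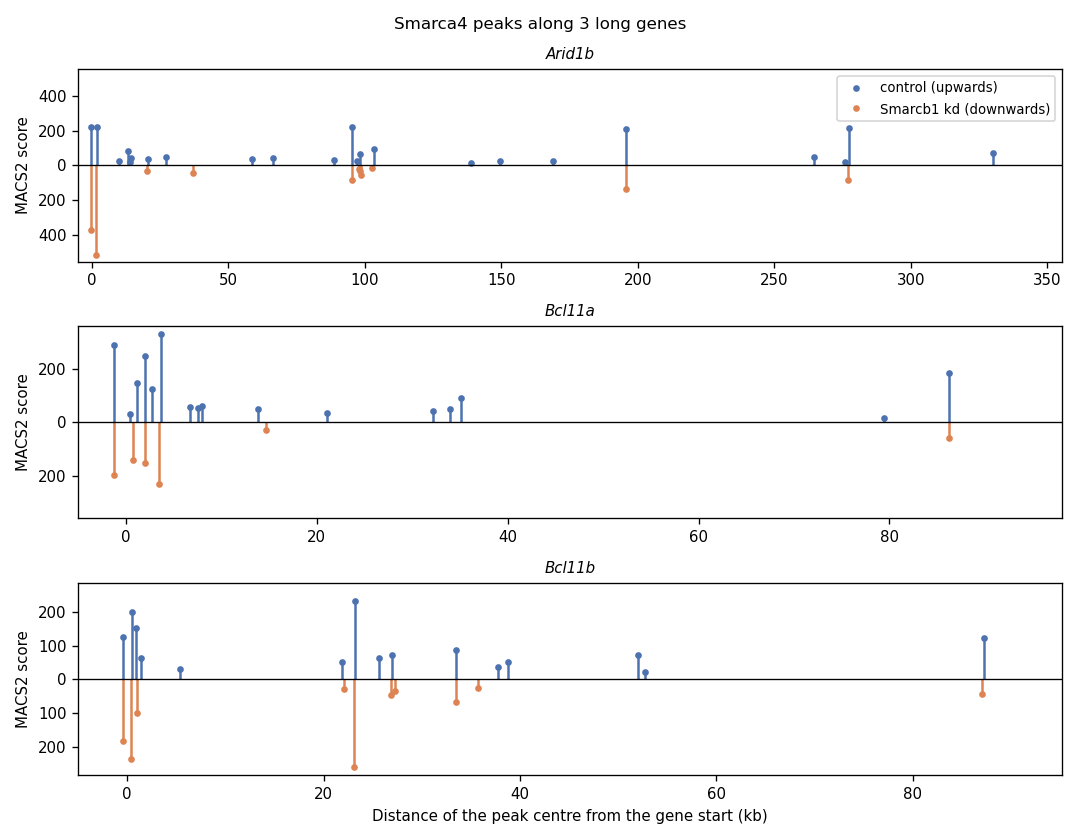
MACS2 score of each Smarca4 peak (y axis, control upwards, Smarcb1 kd downwards, 1 library each) against the distance of its centre from the gene start in kb (x axis) in Arid1b, Bcl11a and Bcl11b. Many control peaks along the bodies, mostly low ones, have no overlapping kd peak, though some low ones do. A few kd peaks along the bodies have no overlapping control peak. The peaks at the start remain in both lists.

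H3K27me3 islands apart from the promoter numbered 21 in 7 genes in control and 12 in 6 genes after kd (19.1% and 14.3% of all bodies had one). All H3K27me3 islands together covered 19.6% of the summed body length in control and 13.7% after kd, against 8.61% and 6.02% over all protein-coding bodies. The cover was lower after kd in 8 genes and higher in Smarca2 and Dpf1, whereas it was lower in 59.1% and higher in 27.3% of the 9045 genes with a region in either condition. Bcl11b had 64.4% of its body covered in control and 47.9% after kd, Bcl11a 27.3% and 14.2%, and Dpf3 17.3% and 7.66%. In Dpf1 the cover was 31.6% in control and 51.5% after kd.

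**Figure D5:**
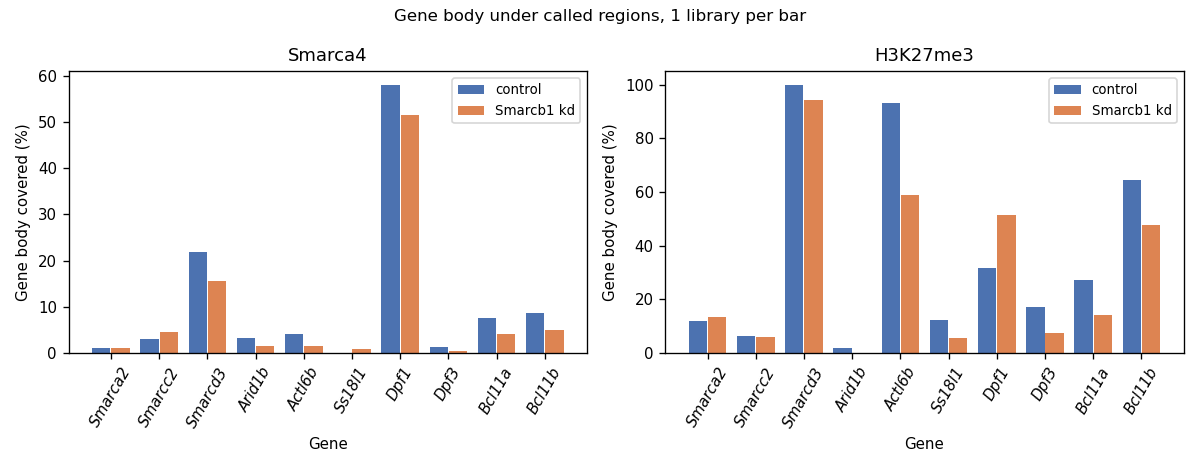
Percentage of the gene body covered by called Smarca4 peaks (left) and H3K27me3 islands (right) for each of the 10 genes (x axis), in control (blue) and after Smarcb1 kd (orange), 1 library per bar and hence without error bars. The orange bar is lower in 8 of 10 genes in each panel, with Smarcc2 and Ss18l1 the exceptions for Smarca4 and Smarca2 and Dpf1 for H3K27me3.

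The other antibodies gave few body regions. Ezh2 had 8 peaks in 4 genes in control and 8 in 3 genes after kd (7.75% and 5.25% of all bodies), in Smarcd3, Bcl11a and Bcl11b and, in control, Dpf3. H3K27ac had 2 islands in Arid1b in control and 5 islands in 5 genes after kd (22.9% and 31.8% of all bodies). Those in Smarca2, Smarcc2, Smarcd3 and Dpf1 were called after kd alone (80.0% of the kd islands, against 49.7% over all bodies). The kd list of H3K27ac was the longer one, with 51100 islands against 39091. With lists of equal length 3 of the 5 kd islands were left, and without islands at least 50% repeat-masked also 3, as the island in Smarcc2 was 62.9% and that in Smarca2 wholly repeat-masked. At the stricter threshold, a -log10 p from 10 on, 0 islands were left in control and 3 after kd. H3K4me3 had 7 islands in 4 genes in control and 12 in 6 after kd (17.8% and 22.7%). All 7 control islands were shared, as were 4770 of 5481 over all protein-coding bodies. The 4 unshared kd islands lay in Smarcd3, Dpf1, Bcl11a and Bcl11b. They made up 33.3% of the kd islands, close to the 37.8% over all bodies. In the 3' exons of both zinc finger genes, at Smarca4 peaks from 85604 bp in Bcl11a and from 86163 bp in Bcl11b on, Smarca4, Ezh2 and H3K27me3 were called together in both conditions, and H3K4me3 was called there in both conditions in Bcl11b and after kd alone in Bcl11a.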

How the data were processed

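ChIP-seq region lists of 10 immunoprecipitated libraries (5 antibodies in control and kd) were used. The 4 inputs entered through the authors' calling alone, and the labels of these samples name IgG, so the background used is not certain. Per the study's methods, the authors trimmed reads, aligned them to mm10, kept uniquely mapped reads (SAMtools 1.9) and called each library on its own. Trim Galore and Bowtie2, the tools for trimming and alignment, are named in the sample records alone. The deposited Smarca4 and Ezh2 peaks carry the authors' MACS2 score, and the deposited islands carry the authors' SICER p-value (window of 200 bp, gap of 600 bp), on which the authors filtered the lists. Versions other than that of SAMtools are not given in the sources used here.

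Lines on other contigs than the 19 autosomes, X and Y were dropped (0 to 61 a list). They were assigned to genes of GENCODE M21 (the study names a later release) by an overlap of at least 1 bp, with Python 3.11.15, NumPy 2.4.6, SciPy 1.17.1 and pysam 0.24.0. The overlap step was tested on simulated regions. The end of an island was taken as its final base. A region was shared when it overlapped one of the other condition of the same antibody. No test was made, because regions and genes of 1 library are not replicates. Soft-masked letters of the GRCm38 sequence (36.4%) were taken as repeats. The 10 genes and the lists of other genes were chosen with earlier results of these data known. Named regions were the strongest of each list in each gene, that nearest to the start, and those called in 1 condition. Alternatives were a stricter threshold, region centres, lists of equal length, regions under 50% repeat-masked, other windows and starts, merging of regions closer than 1 kb, and all annotated genes as background. Counting regions that reach the promoter in the body as well was added after the data were seen.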

Additional observations from a re-analysis of the deposited data

How the results depend on the processing

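Of 184 counts recomputed under an alternative, 156 were within 1.5 times the value given in the report and 28 were not. The alternatives changed no count of Smarca4 or H3K4me3 promoters by more than that. With the centre of a region required in the window, the promoters called were 0 for H3K27me3 in control and 1 after kd, 1 for H3K27ac in control and 3 for Ezh2 after kd, and bodies with Ezh2 after kd were 6, since wide islands have their centre outside the window. The stricter threshold (MACS2 score from 50 on, and a -log10 p from 20 on, or from 10 on for H3K27ac) gave 1 promoter for H3K27ac in control, and bodies with H3K27ac of 0 in control and 3 after kd. Under it the body regions numbered 45 and 26 for Smarca4, 11 and 6 for H3K27me3 and 0 and 3 for H3K27ac (control and kd), and 4 for H3K4me3 in control. Lists of equal length, and regions under 50% repeat-masked, each gave 3 bodies and 3 body regions for H3K27ac after kd. Merging gave 38 and 25 Smarca4 body regions. Counting regions that reach the promoter in the body too, an alternative chosen after seeing the data, gave bodies with Ezh2 of 6 after kd and with H3K4me3 of 9 and 10. It gave 13 Ezh2 and 20 H3K27me3 body regions after kd and 15 and 21 for H3K4me3. More body regions of Smarca4 and of H3K27me3 were called in control than after kd under each of these alternatives, and with lists of equal length the numbers were 60 and 45 for Smarca4 and 15 and 12 for H3K27me3. With all annotated genes as background, the share of promoters called was 34.0% and 34.4% for Smarca4, 4.12% and 6.70% for Ezh2, 23.0% and 18.6% for H3K27me3, 10.9% and 18.9% for H3K27ac and 29.7% and 32.1% for H3K4me3 (control and kd).

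Leaving out a replicate was not possible with 1 library per antibody and condition. No paired analysis was possible because the groups share a single replicate number and no test was made. The lists give no read counts, so that the depth of a library could not be weighed, and the number of regions in a list sets how many genes can be called. Called regions give presence and extent, not the amount of bound protein or mark.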

Other observations

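Genes known to govern the exchange of subunits were read in the same lists. Rest and its corepressor genes Rcor1 and Rcor2, which hold neuronal genes silent in other cells, had H3K4me3 and Smarca4 at the promoter in both conditions. H3K27ac was called at Rest and Rcor2 in both conditions and at Rcor1 after kd alone, where an H3K27me3 island covered 27.5% of the promoter window in control and none was called after kd. MicroRNAs from the miR-9 and miR-124 hairpins repress the stem cell subunit Actl6a in neurons. All 6 of their hairpin genes (Mir9-1, Mir9-2, Mir9-3, Mir124a-1, Mir124a-2 and Mir124a-3) lay in an H3K27me3 island in both conditions, with between 97.2% and 100% of the 1 kb on each side of the hairpin start covered. These windows lie around the hairpins and not around the starts of the primary transcripts. Ezh2 was called at 4 of the 6 in both conditions, Mir9-2 and Mir124a-1 being the others, and H3K27ac at Mir124a-1 alone in both conditions. At Mir9-1 an H3K4me3 island that covered 80.1% of the window was called after kd alone. Such calls were also made at Smarcd3 and Actl6b, at the fibroblast markers Col1a1 and Thy1, and at 4.59% of all protein-coding promoters. The kd list of the mark was the longer one, with 33506 islands against 26130.

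The subunits that are not exchanged were read as well. Over the 6 shared subunits (Smarcb1, Smarce1, Bcl7a, Bcl7b, Bcl7c and Actb), the 3 PBAF genes (Pbrm1, Arid2 and Brd7) and the 3 ncBAF genes (Brd9, Bicra and Bicral), H3K4me3 was called at every promoter in both conditions and Ezh2 at 0. H3K27ac was called at 4, 3 and 2 of these promoters in control and at 6, 3 and 3 after kd. H3K27me3 was called at the Brd7 promoter alone, with 59.7% of the window covered in control and 29.7% after kd.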
